A study of Arabidopsis thaliana with 36 samples.

Results

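The cuticle and epidermal identity genes of Arabidopsis thaliana described here are 10 loci of the deposited count table, out of 33341 loci in all. They were chosen by locus identifier and not by a threshold on a measured value, but the list was drawn up with earlier results of these libraries known. Which measured values led to it is not recorded. The Col-0 tissue comparisons are treated here as those values and are given with no p-value. The mutant comparisons, given with p-values, may have been known as well. The 10 are the long-chain acyl-CoA synthetase gene LACS2, the acyltransferase genes GPAT4, GPAT6 and GPAT8, the cytochrome P450 gene CYP77A6, the hydrolase-fold gene BDG, the elongase gene KCS6, the alkane synthesis gene CER1, the epidermal marker PDF1 and the transcription factor gene ATML1. All 10 were in the table, and 8 passed the filter on low counts, which GPAT6 and CER1 did not. PDF1 passed through its intact and scion libraries, since its rootstock libraries held almost no reads.

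RNA was read in 36 libraries from hypocotyls of 7-day-old seedlings, 3 biological replicates in each of 12 groups per the series design. The genotypes were the mutants dof quadruple, erf114,115 and anac071,096, for which the labels give these names and no alleles, and the wild type Col-0. In each genotype, hypocotyl was taken above the graft junction (scion) and below it (rootstock) 24 h after grafting, and from plants that had not been cut (intact). Each side of the junction gave 0.5 mm of tissue and the intact hypocotyl 1 mm. A cotyledon had been removed from grafted and intact plants alike, each graft joined the upper and lower parts of different plants, and all seedlings grew in short days.

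The cuticle is a lipid layer that epidermal cells of the shoot build on their outer wall. Its polymer, cutin, is made from fatty acids that are activated by acyl-CoA synthetases such as LACS2, hydroxylated by P450 enzymes such as CYP77A6, and joined to glycerol by GPAT4, GPAT6 and GPAT8. Its waxes come from very-long-chain fatty acids that KCS6 elongates and, for alkanes, from CER1. BDG is an extracellular protein of the epidermis needed for a normal cuticle. ATML1 is a homeodomain leucine zipper protein of class IV (HD-ZIP IV) that specifies epidermal identity and binds the L1 box, a short motif in promoters of epidermal genes. PDF1 is a target of this kind of factor and a marker of the outermost cell layer.

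The L1 box is shown because ATML1, 1 of the 10 genes, binds it. It was searched as TAAATGCA and as TAAATGTA, motifs that do not overlap each other, on both strands from 250 bases before to 50 bases after the annotated start of each of the 10 genes, in the TAIR10.1 genome. It was found in 2 of them, PDF1 and GPAT8. The 30 bases around it are shown with the box in capitals, read 5′ to 3′ on the strand of the gene, and with GPAT4, the near relative of GPAT8, at the same distance from its start for comparison.
PDF1, chr2:17827600-17827629, minus strand: atgggatagtgTAAATGCAcctgcaacaca
GPAT8, chr4:176826-176855, minus strand: ttcaatataggTGCATTTAaaacataacgt
GPAT4, chr1:224307-224336, minus strand: accttccctctctttctttccaaatctctc
In PDF1 the box begins 31 bases into the transcribed part, and in GPAT8, where it lies on the reverse strand, 27 bases into it. TAAATGCA was present in 1.81% of all 27443 windows of this length and TAAATGTA in 3.37%, and 5.1% held either. A match is a description of the letters and not a measured binding site.

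The median library held 23.8 M counts, where M is the SI prefix mega, and the range was 19.5 M to 30.5 M. Levels are given as CPM, the counts of a gene per M counts of its library after edgeR's scaling. Col-0 rootstock replicate 1 counted 2514 loci that were at 0 in every other library, where no other library had more than 34 such loci. It held 15 of the 17 counts of PDF1 in the Col-0 rootstocks, and values that rest on it are given with and without it. The genes in the mutants' names were lower in them. ERF114 and ERF115 had 6.13 to 7.25 and 0.498 to 1.61 CPM in erf114,115 scions, against 49.3 to 63.4 and 54.7 to 70.7 CPM in Col-0 scions. ANAC071 and ANAC096 had 4.55 to 8.31 and 5.36 to 7.15 CPM in anac071,096 scions, against 18.7 to 27.3 and 28.98 to 38.0 CPM in Col-0 scions. The labels do not say which DOF genes are mutated in dof quadruple. Of 4 DOF genes that general knowledge of this line names, DOF6 had 0 counts in the scions and intact tissue of dof quadruple and 1 count in its rootstocks, against 178, 78 and 114 counts in these tissues of Col-0. The other 3 do not check the label. TMO6 had 39.3 to 54.5 CPM in dof quadruple scions, against 116 to 120.0 CPM in Col-0 scions. DOF2.1 had 139 to 153 CPM in dof quadruple scions, against 233 to 250.4 CPM in Col-0 scions, but 28.3 to 38.3 CPM in intact dof quadruple, against 9.72 to 17.5 CPM in intact Col-0. HCA2 was at 72.3 to 88.5 CPM in dof quadruple scions, against 20.5 to 26.7 CPM in Col-0 scions.

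The 10 genes spanned a wide range of level in intact Col-0 hypocotyls. Per kilobase of exon, KCS6 stood at 241 ± 34.0 CPM, GPAT8 at 48.0 ± 12.7, GPAT4 at 32.8 ± 4.81 and ATML1 at 25.8 ± 4.61 (SD, n = 3). BDG followed at 14.9 ± 4.00, PDF1 at 11.9 ± 5.13, LACS2 at 7.50 ± 1.59 and CYP77A6 at 3.98 ± 0.604 CPM per kilobase. GPAT6 (AT2G38110, chr2:15952496-15955752), known for the cutin of flowers, had 33 counts in all 36 libraries together, with 22 libraries at 0 and a highest count of 8. CER1 (AT1G02205, chr1:418416-422579) had 31 counts, likewise with 22 libraries at 0 and a highest count of 8. Both highest counts were in Col-0 rootstock replicate 1, and without it the highest were 4 for GPAT6 and 5 for CER1. Neither gene was tested, and no difference between groups was detectable for them at this depth. A group at 0 allows at most 3 counts, which is 0.0442 CPM for GPAT6 in dof quadruple rootstocks.

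PDF1 (AT2G42840, chr2:17826071-17827648 in TAIR10.1, as for the coordinates of the other genes) was lower beside the junction than in intact hypocotyl in all 4 genotypes, and was close to absent below it. Rootstock libraries had 0.261, 0.183 and 0.233 CPM in dof quadruple, 0.0551, 0.0456 and 0.0993 in erf114,115 and 0.0915, 0 and 0.0953 in anac071,096. The intact libraries had 14.6, 10.3 and 22.2 CPM in dof quadruple, 13.4, 15.7 and 18.1 in erf114,115 and 11.7, 18.1 and 28.4 in anac071,096. No rootstock library overlapped with an intact one. In Col-0, PDF1 was at 0.747, 0.0806 and 0 CPM in rootstocks, against 10.7, 14.5 and 24.6 CPM in intact tissue. These rootstock levels rest on 15, 4 and 4 counts summed over the libraries of each mutant, and on 17 in Col-0. As a ratio of CPM, the intact level of anac071,096 was 312 times its rootstock level, with a 95% interval of 112 to 1053 that covers counting error only. Rootstock over intact, the log2 change of PDF1 was -6.11 ± 0.80 in dof quadruple, -7.78 ± 0.94 in erf114,115 and -8.14 ± 0.94 in anac071,096, each with its standard error (SE). The adjusted p-values were 3.76e-07, 6.16e-08 and 3.36e-08 by the quasi-likelihood test of edgeR, adjusted by Benjamini-Hochberg over all loci tested. PDF1 passed the filter on low counts through its intact and scion libraries and not through its rootstock libraries. These p-values are therefore given as a description, and no support is drawn from them. The Col-0 change, given with no p-value here and below, was -5.90 ± 0.78, and -8.33 without Col-0 rootstock replicate 1.

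In scions PDF1 was intermediate. It had 0.791, 1.80 and 3.33 CPM in dof quadruple scions, 1.87, 6.43 and 2.67 in erf114,115 and 3.48, 0.861 and 1.58 in anac071,096, and 1.04, 0.881 and 4.17 CPM in Col-0. Every scion library lay below every intact library of its genotype and above every rootstock library. Scion over intact, PDF1 fell in all 3 mutants, with log2 changes of -2.99 ± 0.62, -2.097 ± 0.59 and -3.30 ± 0.63 in dof quadruple, erf114,115 and anac071,096 and adjusted p-values of 0.00017, 0.00381 and 6.31e-05. The Col-0 value was -3.04 ± 0.62. One library weighed on each of these values: the log2 change was -3.59 without dof quadruple scion replicate 3, -2.85 without erf114,115 scion replicate 2, -3.98 without anac071,096 scion replicate 1 and -4.10 without Col-0 scion replicate 3. Scion over rootstock, the log2 changes of PDF1 were 3.12 ± 0.81, 5.68 ± 0.97 and 4.84 ± 1.01 (adjusted p 0.00285, 1.84e-05 and 0.000246). They rest on the same few rootstock counts, and these p-values too are only a description. The pieces were bulk tissue, so fewer epidermal cells and less RNA per cell cannot be told apart here.

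ATML1 (AT4G21750, chr4:11555039-11560771), the regulator, was lower on both sides of the junction, with smaller changes than those of PDF1. Over the 12 libraries of each tissue, the lowest, median and highest ATML1 levels were 35.7, 63.2 and 78.8 CPM in scions, 40.7, 49.4 and 60.2 in rootstocks and 68.6, 114 and 145 in intact tissue. The highest rootstock library lay below the lowest intact one. ATML1 fell in the scion of every mutant, with log2 changes of -0.99 ± 0.16 in dof quadruple, -0.94 ± 0.16 in erf114,115 and -0.79 ± 0.16 in anac071,096 (adjusted p 4.99e-06, 1.08e-05 and 0.000113). In rootstocks the log2 changes were -0.70 ± 0.16, -1.33 ± 0.16 and -1.21 ± 0.16 (adjusted p 0.000647, 4.88e-08 and 3.12e-07). Col-0 had -0.84 ± 0.16 in scions and -1.17 ± 0.16 in rootstocks.

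**Figure D1:**
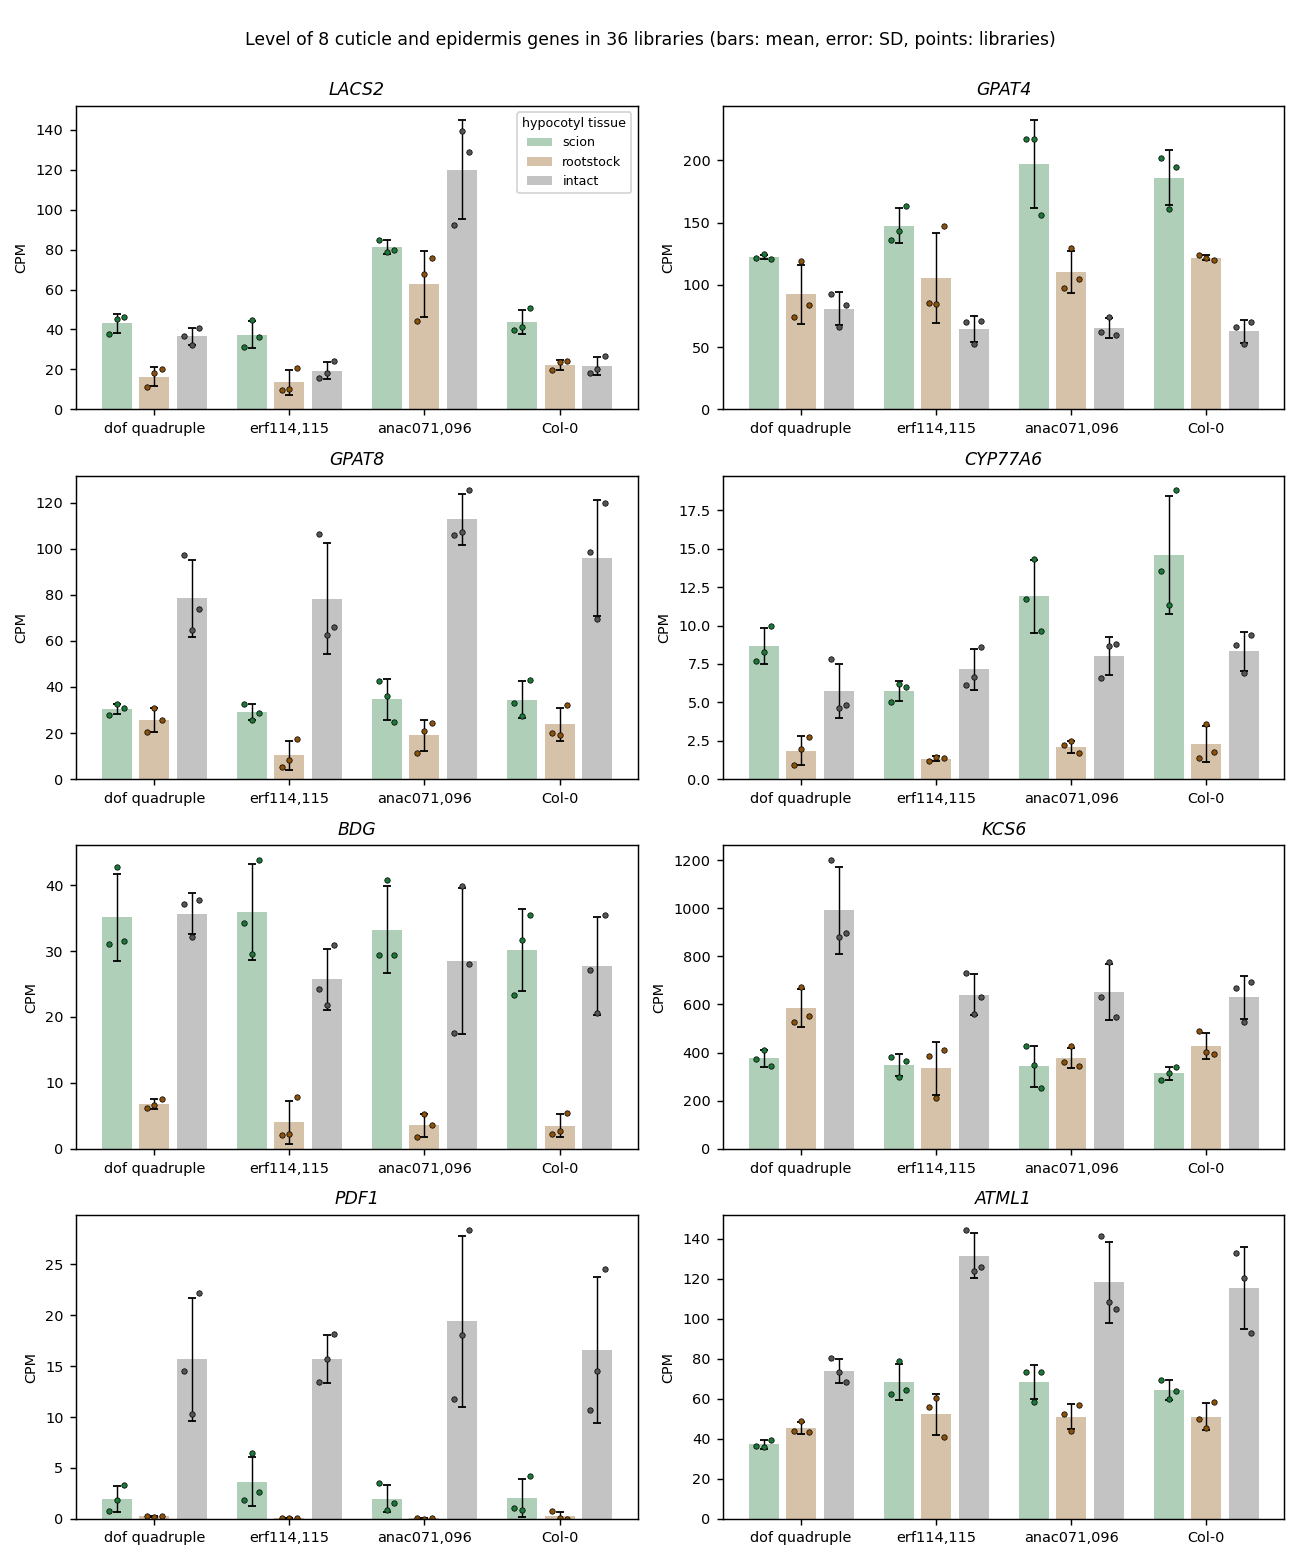
Level of each of the 8 tested genes in CPM (vertical axes, from 0) in the 36 libraries, by genotype and by tissue (green scion, brown rootstock, grey intact). Bars are means of 3 libraries, error bars the SD and points the libraries; PDF1 is near 0 in the rootstocks of all 4 genotypes, and LACS2 is highest in intact anac071,096 tissue, at 92.3 to 139 CPM.

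Of the cutin genes, BDG (AT1G64670, chr1:24030743-24033674) and CYP77A6 (AT3G10570, chr3:3301887-3303982) were lower below the junction in all 4 genotypes, and their changes above it did not pass in any mutant. BDG had 1.83 to 7.80 CPM over the 12 rootstock libraries, against 17.6 to 39.8 CPM over the 12 intact ones, with no overlap. Its scions, at 23.4 to 43.8 CPM, overlapped with intact tissue in all 4 genotypes. BDG fell in the rootstocks of dof quadruple, erf114,115 and anac071,096, with log2 changes of -2.39 ± 0.38, -2.66 ± 0.40 and -3.00 ± 0.40 (adjusted p 1.04e-05, 2.15e-06 and 4.7e-07), and the erf114,115 value was -3.55 without rootstock replicate 3. The same change was -2.99 ± 0.40 in Col-0. In scions the BDG changes did not pass, at -0.02 ± 0.36, 0.48 ± 0.36 and 0.22 ± 0.36 (adjusted p 0.968, 0.28 and 0.639). Over 38 exonic bases BDG overlaps MGL on the opposite strand, and reads there could not be assigned with certainty, since the strand setting of the counting is not given in the sources used here.

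CYP77A6, which adds an in-chain hydroxyl group to cutin fatty acids, was at 5.02 to 18.8 CPM in scions, 0.888 to 3.59 in rootstocks and 4.65 to 9.36 in intact tissue. Every one of the 12 rootstock libraries lay below every intact library and every scion library. It fell in the rootstock, with log2 changes of -1.61 ± 0.32 in dof quadruple, -2.43 ± 0.33 in erf114,115 and -1.93 ± 0.32 in anac071,096 (adjusted p 0.000145, 4.56e-07 and 1.19e-05), with -1.86 ± 0.32 in Col-0. Scion over rootstock it was higher in every genotype, by 2.21, 2.12 and 2.49 on the log2 scale in dof quadruple, erf114,115 and anac071,096 (SE 0.32, 0.33 and 0.32, adjusted p 2.55e-06, 4.59e-06 and 2.08e-07) and by 2.67 in Col-0. Scion over intact it did not pass in any mutant, with values of 0.59 ± 0.30, -0.31 ± 0.30 and 0.57 ± 0.29 (adjusted p 0.0918, 0.399 and 0.11), although with only the compared groups in the fit dof quadruple and anac071,096 did (0.0422 and 0.0486). The Col-0 value was 0.81, and 0.58 without Col-0 scion replicate 3.

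GPAT4 (AT1G01610, chr1:221642-224351) and GPAT8 (AT4G00400, chr4:173953-176870), acyltransferases known to act together in the cutin of leaves and stems, moved in opposite directions. GPAT4 had 121 to 218 CPM in scions, 73.8 to 147 in rootstocks and 52.5 to 92.5 in intact tissue. It rose in the scion of each mutant, by 0.60 ± 0.20 in dof quadruple, 1.19 ± 0.20 in erf114,115 and 1.60 ± 0.20 in anac071,096 on the log2 scale (adjusted p 0.0116, 1.06e-05 and 1.15e-07). The dof quadruple call was lost without intact replicate 2 (adjusted p 0.0785). In rootstocks GPAT4 rose in anac071,096 by 0.76 ± 0.20 (adjusted p 0.00275) and in erf114,115 by 0.71 ± 0.20 (adjusted p 0.00434), but the erf114,115 value was 0.40 without rootstock replicate 3, with an adjusted p of 0.109, and it did not pass with only the compared groups in the fit (0.15). In dof quadruple rootstocks the value was 0.19 ± 0.20 and did not pass. Col-0 had 1.57 ± 0.20 in scions and 0.96 ± 0.20 in rootstocks.

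GPAT8 had 25.0 to 43.1 CPM in scions and 5.29 to 32.2 in rootstocks, against 62.7 to 126 CPM in intact tissue, and neither graft tissue overlapped with intact tissue. It fell in the scions of dof quadruple, erf114,115 and anac071,096, with log2 changes of -1.37 ± 0.32, -1.43 ± 0.32 and -1.70 ± 0.32 (adjusted p 0.000546, 0.000359 and 4.77e-05). In rootstocks it fell with changes of -1.61 ± 0.32, -2.93 ± 0.34 and -2.58 ± 0.33 (adjusted p 0.000154, 2.33e-08 and 2e-07), and the erf114,115 value was -3.53 without rootstock replicate 3. Col-0 had -1.47 ± 0.32 and -2.01 ± 0.32. Of the 50-base stretches of GPAT8 exons, 0.333% also occur elsewhere in the genome, and of those of GPAT4 0%.

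The ratio of GPAT4 to GPAT8, each per exon length, was taken after their values were seen. It was 4.00 to 6.53 over the 12 scion libraries, 3.39 to 16.8 over the 12 rootstock libraries and 0.493 to 1.18 over the 12 intact libraries. The medians were 5.54, 6.49 and 0.755. On this scale GPAT8 was the more abundant of the pair in 9 of the 12 intact libraries, and GPAT4 in all 24 graft libraries. The erf114,115 rootstocks had 16.8, 10.7 and 8.90, the highest group median.

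**Figure D2:**
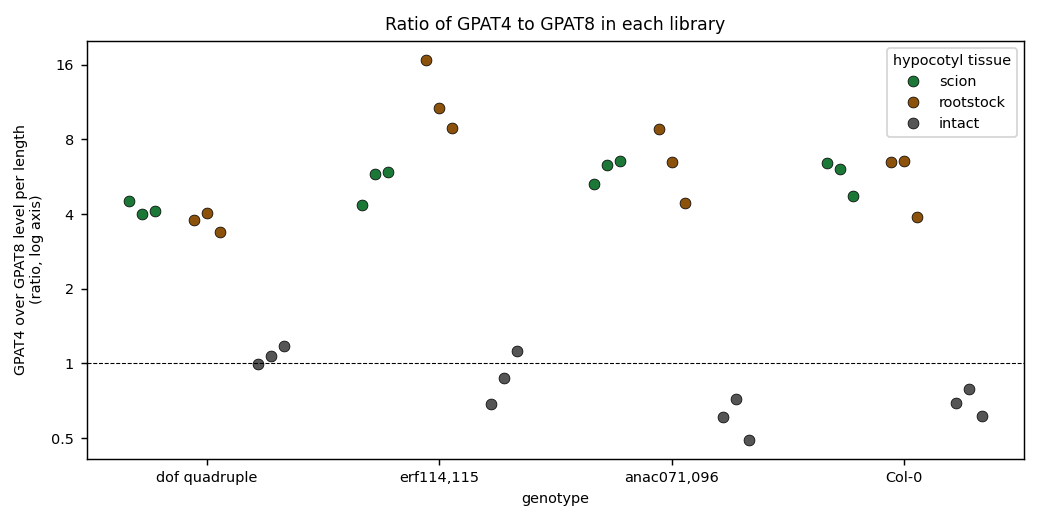
Ratio of GPAT4 to GPAT8 level per exon length (vertical log axis) in each of the 36 libraries, by genotype and tissue; points are libraries and the dashed line marks equal levels. All scion and rootstock libraries lie between 3.39 and 16.8, and all intact libraries between 0.493 and 1.18.

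LACS2 (AT1G49430, chr1:18290942-18295905) had scion levels above, within or below those of intact tissue, depending on the genotype. Its libraries had 37.6, 45.1 and 46.4 CPM in scions of dof quadruple, 10.9, 18.2 and 19.9 in its rootstocks and 36.9, 32.2 and 40.5 in its intact hypocotyls. In erf114,115 they had 31.0, 44.6 and 36.3 CPM in scions, 9.59, 10.07 and 20.5 in rootstocks and 15.8, 18.2 and 24.1 in intact tissue. In anac071,096 they had 85.1, 78.9 and 79.9 CPM in scions, 44.3, 67.9 and 76.0 in rootstocks and 92.3, 139 and 129 in intact hypocotyls. Col-0 had 39.6, 41.3 and 50.6 CPM in scions, 19.4, 23.7 and 24.0 in rootstocks and 17.96, 19.9 and 26.7 in intact hypocotyls. Scions lay above intact tissue in erf114,115 and Col-0, overlapped with it in dof quadruple and lay below it in anac071,096. LACS2 rose in erf114,115 scions by 0.94 ± 0.25 (log2, adjusted p 0.00216), where Col-0 had 1.03 ± 0.25. The dof quadruple value of 0.24 ± 0.25 and the anac071,096 value of -0.56 ± 0.25 did not pass (adjusted p 0.433 and 0.0562). The anac071,096 value passed with DESeq2 (adjusted p 0.0217), and in edgeR with other scalings, no filter, the replicate block or only the compared groups in the fit (0.0151 to 0.0497). In rootstocks LACS2 fell in dof quadruple, at -1.16 ± 0.25, and in anac071,096, at -0.94 ± 0.25 (adjusted p 0.000446 and 0.00293). The erf114,115 rootstock value was -0.53 ± 0.25 (adjusted p 0.0854), and -0.98 without rootstock replicate 3 (adjusted p 0.00243). With all libraries it passed with DESeq2 (0.0391), relative log expression scaling (0.0461), upper-quartile scaling (0.0238) and the replicate block (0.0157). Col-0 rootstocks had 0.06 ± 0.25.

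KCS6 (AT1G68530, chr1:25712414-25715024), the wax elongase, was lower on both sides of the junction. It had 255 to 426 CPM in scions, 209.9 to 674 in rootstocks and 527 to 1201 in intact tissue, and across genotypes the rootstock range overlapped with the intact range. It fell in the scions of dof quadruple, erf114,115 and anac071,096, with log2 changes of -1.40 ± 0.21, -0.88 ± 0.21 and -0.93 ± 0.21 (adjusted p 2.26e-06, 0.000861 and 0.000503). The rootstock changes were -0.76 ± 0.21, -0.94 ± 0.21 and -0.79 ± 0.21 (adjusted p 0.00443, 0.000561 and 0.00322). Col-0 had -1.004 ± 0.21 and -0.55 ± 0.21. In dof quadruple KCS6 was also lower in the scion than in the rootstock, at -0.64 ± 0.21 (adjusted p 0.0163), a call that was lost without scion replicate 3 (adjusted p 0.0633) or rootstock replicate 2 (0.0828).

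**Figure D3:**
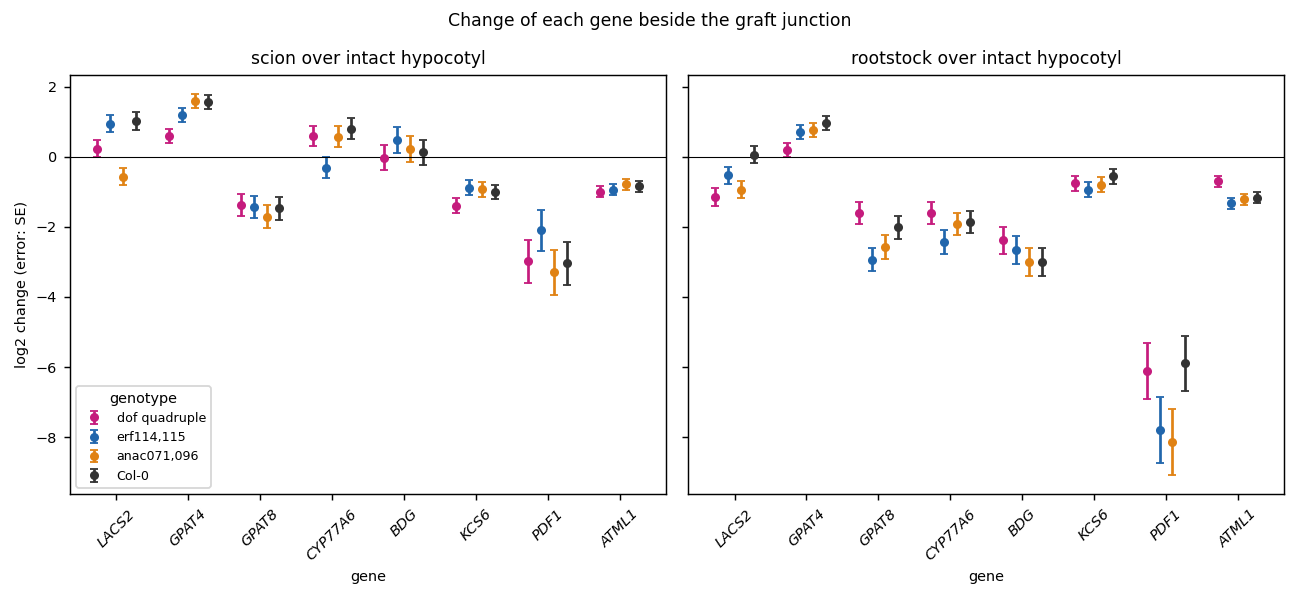
Log2 change of the 8 tested genes in scion over intact hypocotyl (left) and rootstock over intact hypocotyl (right), with the SE from the fit as error bars, in dof quadruple, erf114,115, anac071,096 and Col-0 (colours). PDF1 has the most negative values, down to -8.14 in anac071,096 rootstocks, and GPAT4 is the gene with positive values in both panels and all 4 genotypes.

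Counted over the 8 tested genes, rootstock over intact gave 7 lower and 0 higher in dof quadruple, 6 lower and 1 higher in erf114,115, and 7 lower and 1 higher in anac071,096. Of all 19476 tested loci, 17.4%, 17.9% and 16.4% were lower and 22.9%, 26.9% and 21.7% higher in these comparisons. The median log2 change of the 8 genes was -1.38, -1.88 and -1.57, beside 0.01, 0.08 and 0.05 over all tested loci. Scion over intact gave 4 lower in each of dof quadruple, erf114,115 and anac071,096, with 1, 2 and 1 higher, where 25.6%, 21.6% and 22.9% of all loci were lower and 28.7%, 28.7% and 27% higher. Scion over rootstock gave 4, 7 and 6 higher and 1, 0 and 0 lower, where 19.7%, 23.6% and 23.3% of all loci were higher and 20.1%, 23.1% and 22.6% lower. Near the threshold were GPAT4 and ATML1 in erf114,115 (log2 0.48 ± 0.20 and 0.39 ± 0.16, adjusted p 0.0462 and 0.042), each lost without any of 5 single libraries (up to 0.211 and 0.256). GPAT8 and ATML1 in anac071,096 (0.87 ± 0.32 and 0.42 ± 0.16, adjusted p 0.0251 and 0.0295) were lost without any of 3 and 4 single libraries (up to 0.157 and 0.14). In Col-0 the counts were 6 lower and 1 higher below the junction (all loci 17% and 22.6%), 4 lower and 3 higher above it (25.2% and 29%), and 5 higher and 0 lower in scion over rootstock (23.5% and 22.7%). The Col-0 counts use the same threshold and nothing is read from them, since they may have led to the list. Within a genotype, these comparisons share their libraries. All of these counts include PDF1, whose limit is given above.

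Between genotypes in the same tissue, few of the 8 genes differed from Col-0, with 5 calls among 72 gene and comparison pairs. LACS2 gave 2 of them. In intact hypocotyls it stood at 120.1 ± 24.7 CPM in anac071,096 and 21.5 ± 4.56 CPM in Col-0 (SD, n = 3 each), a log2 change of 2.48 ± 0.26 or 5.58-fold (adjusted p 1.45e-06). All 3 anac071,096 libraries lay above all 3 Col-0 libraries. LACS2 was 1 of 8 loci called in this comparison, or 0.0411% of those tested, and kept its call when each library was left out in turn. Of the other loci called, AT1G75945, AT3G05945 and HEI10 were also called in intact erf114,115 over Col-0, in the same direction, and LACS2 was not. In rootstocks it was also higher in anac071,096, by 1.49 ± 0.25 (adjusted p 0.00071, 0.863% of loci called). In scions the 3 anac071,096 libraries again lay above those of Col-0, but the change of 0.89 ± 0.25 did not pass with edgeR (adjusted p 0.166, 0.385% of loci called) and did with DESeq2 (0.0478), and in edgeR with the replicate block (0.0104) or only the compared groups in the fit (0.00112). The other 7 tested genes gave no call in anac071,096 in any tissue.

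ATML1 was lower in dof quadruple than in Col-0 in scions and in intact tissue. Scion libraries had 36.3, 35.7 and 39.6 CPM in dof quadruple, against 69.5, 59.7 and 64.0 CPM in Col-0, a log2 change of -0.79 ± 0.16 (adjusted p 0.00306, where 1.5% of loci were called). Intact libraries had 80.3, 73.2 and 68.6 CPM in dof quadruple and 133, 120.3 and 92.7 CPM in Col-0, a change of -0.64 ± 0.16 (adjusted p 0.011, 4.59% called). The groups did not overlap in either tissue. The call in intact tissue did not hold without replicate 1 of intact Col-0 (adjusted p 0.102), without dof quadruple intact replicate 3 (0.0691) and when these 2 groups were fitted alone (0.141). In rootstocks ATML1 had 43.8, 49.1 and 43.3 CPM in dof quadruple and 49.7, 45.2 and 58.5 in Col-0, which overlapped (-0.17 ± 0.16, adjusted p 0.73, 3.73% called). In dof quadruple scions all libraries of GPAT4 and CYP77A6 lay below, and all of KCS6 above, those of Col-0, without passing (-0.60 ± 0.20, -0.75 ± 0.29 and 0.26 ± 0.21, adjusted p 0.196, 0.431 and 1). With only the compared groups in the fit, GPAT4 and CYP77A6 did pass there (0.00773 and 0.0466).

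CYP77A6 gave the remaining call, in scions of erf114,115. It had 5.02, 6.22 and 5.99 CPM there, against 13.6, 11.3 and 18.8 CPM in Col-0 scions, with no overlap and a log2 change of -1.34 ± 0.30 (adjusted p 0.0163, where 0.893% of loci were called). This call was lost without Col-0 scion replicate 3 (adjusted p 0.138) and without erf114,115 scion replicate 1, 2 or 3 (0.0901, 0.0659 and 0.065). GPAT8 and LACS2 in erf114,115 rootstocks did not pass with edgeR and all libraries, at -1.21 ± 0.32 and -0.74 ± 0.25 (adjusted p 0.113 and 0.301, 0.38% of loci called), although GPAT8 did with DESeq2 (0.0165). Without erf114,115 rootstock replicate 3, which had the highest level of both genes in its group, they were -1.81 and -1.19 and passed (adjusted p 0.00379 and 0.0192). No gene of the 8 was called in erf114,115 intact tissue (0.0308% of loci called; 0 of the 8 at an unadjusted p under 0.05 and 0 with DESeq2). The 3 mutants are set against the same Col-0 libraries.

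**Figure D4:**
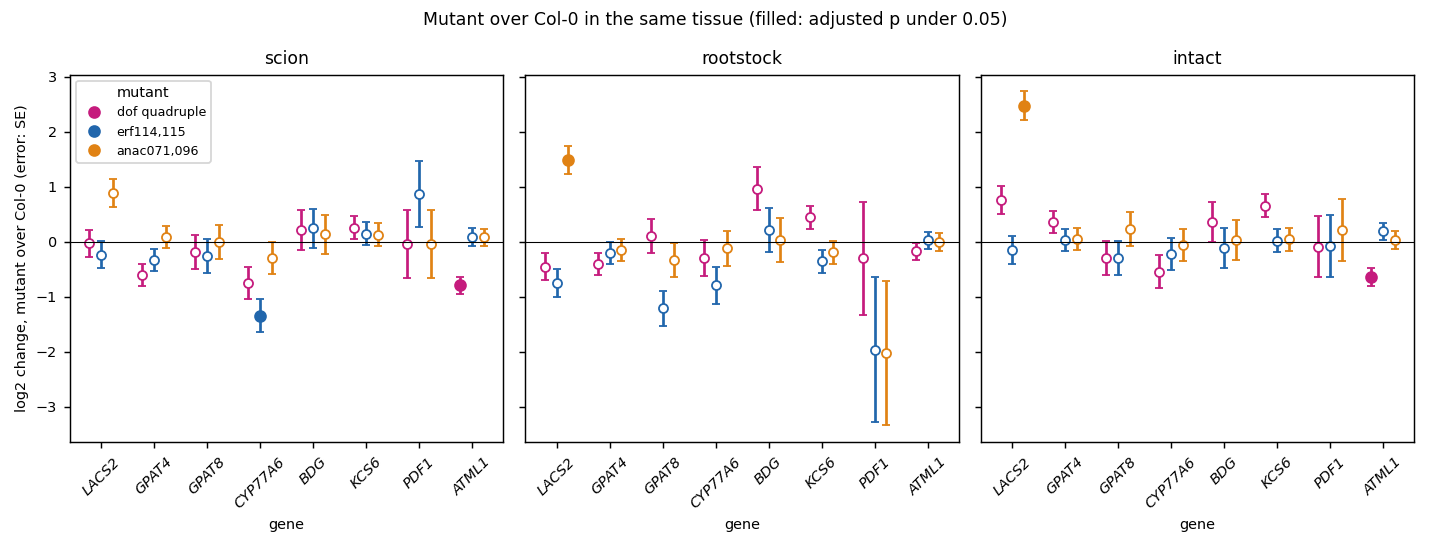
Log2 change of the 8 tested genes in each mutant over Col-0 in scions, rootstocks and intact tissue (panels), with the SE from the fit as error bars; filled points have an adjusted p under 0.05. LACS2 in intact anac071,096 tissue stands highest, at 2.48, and the wide bars of PDF1 in rootstocks rest on few counts.

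The response to grafting, taken as graft over intact tissue in a mutant minus the same in Col-0, did not differ at the threshold for any of the 8 genes. edgeR called 0 of 48 differences, 9 had an unadjusted p under 0.05, and DESeq2 called 2, both of LACS2. Of all tested loci, 0.945%, 0.0513% and 0.0462% were called for the scion responses of dof quadruple, erf114,115 and anac071,096, and 0.899%, 0.0462% and 0.205% for their rootstock responses. The scion response of LACS2 was -1.59 ± 0.35 in anac071,096 minus Col-0 (log2, adjusted p 0.109; DESeq2 0.00408; replicate block 0.00769). Its rootstock response in dof quadruple minus Col-0 was -1.21 ± 0.35 (adjusted p 0.123; DESeq2 0.0396; replicate block 0.00856). For PDF1 the differences had SEs of up to 1.44 on the log2 scale.

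In the order of the 12 group means, PDF1, ATML1, GPAT8 and KCS6 had the 4 intact groups on top. Neighbouring intact groups overlapped for PDF1, and the lowest intact group did not overlap with the highest scion group. The 3 highest means of LACS2 were those of anac071,096, at 120.1 ± 24.7 CPM for the intact group, 81.3 ± 3.33 for the scions and 62.7 ± 16.4 for the rootstocks (SD, n = 3). The scion libraries overlapped neither with the intact nor with the rootstock libraries of this mutant. Across the 12 group means of log2 CPM, the 28 pairs of the 8 genes had a median Pearson r of 0.44 and ran from -0.80 for GPAT4 with KCS6 to 0.94 for GPAT8 with PDF1. GPAT4 with GPAT8 gave -0.56 and BDG with CYP77A6 0.90. The 12 points share 3 tissues and 4 genotypes, so these values are descriptions with no test. By the same measure the named loci most like each gene were MYB28 (0.996), PPT2 and TIFY8 for PDF1, SAUR29 (0.990), SAUR19 and EXPA11 for GPAT8, and AtHB23 (0.994), LACS9 and FRUCT5 for BDG. They were SIP3 (0.980) for CYP77A6, PMDH1 (0.964) for GPAT4, RLP31 (0.973) for KCS6, MYB66 (0.965) for ATML1 and CPSF73-I (0.839) for LACS2.

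Other genes of cutin and wax were read from lists drawn up beside the 10 genes. Of 10 further cutin genes, 8 were tested, and rootstock over intact gave 5 lower and 1 higher in each of the 3 mutants. Their median log2 changes were -0.90, -0.91 and -0.83 in dof quadruple, erf114,115 and anac071,096, beside the all-loci medians given above, and the shares of all loci called in these comparisons are those given for the 8 genes. HTH, needed to keep organs from fusing, and the lipase gene LTL1 were the cutin genes with the smallest adjusted p. HTH had 45.2, 55.7 and 33.3 CPM in anac071,096 scions and 0.137, 0.702 and 0.715 CPM in its rootstocks (log2 6.43 ± 0.51, adjusted p 3e-11). LTL1 had 46.2, 49.0 and 50.7 CPM in erf114,115 scions and 0.331, 0 and 0.497 CPM in its rootstocks (log2 7.48 ± 0.61, adjusted p 4.77e-11). This rootstock level of LTL1 rests on few counts, and the gene passed the filter through groups where it was higher. Its change is thus a fitted value, and no support is drawn from its p-value. Of 18 further wax and elongation genes, 15 were tested, and rootstock over intact gave 9 lower and 4 higher in dof quadruple, 5 and 4 in erf114,115, and 4 and 3 in anac071,096. Of all loci, 17.4% were lower and 22.9% higher in dof quadruple, 17.9% and 26.9% in erf114,115, and 16.4% and 21.7% in anac071,096, and nothing particular to the wax genes is read from their counts. CER2, which acts in wax elongation, was lower in erf114,115 rootstocks (-3.65 ± 0.28, adjusted p 6.4e-12). LTPG1, a lipid transfer protein of wax export, was higher in erf114,115 scions (3.32 ± 0.33, adjusted p 1.6e-09). Of 10 cuticle regulators 6 were tested, and rootstock over intact gave 2 lower and 2 higher in dof quadruple, 1 and 2 in erf114,115, and 1 and 3 in anac071,096, beside the same shares of all loci. Among them MYB96, an activator of wax genes, was higher in anac071,096 rootstocks (2.28 ± 0.25, adjusted p 7.9e-09).

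Of the 13 further HD-ZIP IV genes, 8 were tested. Rootstock over intact gave 4 lower and 1 higher in dof quadruple, 6 and 1 in erf114,115, and 4 and 1 in anac071,096, with medians of -1.11, -2.02 and -0.74 on the log2 scale. Beside these and the other rootstock counts of this paragraph, 17.4%, 17.9% and 16.4% of all tested loci were lower in these mutants. The shares of all tested loci that were higher were 22.9%, 26.9% and 21.7%. PDF2, the closest relative of ATML1, was lower in erf114,115 rootstocks (-2.39 ± 0.15, adjusted p 1.01e-13), and HDG1 was higher in anac071,096 rootstocks (1.01 ± 0.13, adjusted p 1.63e-07). PDF2 also differed between genotypes in the tissues where ATML1 did. It had 32.3, 34.4 and 38.1 CPM in dof quadruple scions, against 64.8, 51.1 and 55.1 CPM in Col-0 scions (-0.71 ± 0.14, adjusted p 0.00323). Intact tissue had 78.5, 68.2 and 68.1 CPM in dof quadruple and 127, 106 and 98.5 CPM in Col-0 (-0.63 ± 0.14, adjusted p 0.00488), which did not pass without replicate 1 of intact Col-0 (0.0594) or with only the compared groups in the fit (0.1). Of 5 tested epidermal receptor and protease genes, 2 were lower and 0 higher in the rootstocks of each mutant. The receptor gene ACR4, of the epidermal cell layer, was lower in erf114,115 rootstocks (-2.49 ± 0.27, adjusted p 8.96e-09). Of 10 stomatal lineage genes 9 were tested, and 5, 5 and 6 were lower and 0 higher in rootstocks of dof quadruple, erf114,115 and anac071,096, among them ERL2 in erf114,115 (-4.58 ± 0.83, adjusted p 3.73e-05). All 10 together summed to only 7.33 to 11.3 CPM in erf114,115 rootstocks, where 2 of them were at 0 over the group. The ERL2 change is thus a fitted value at a low level, and no support is drawn from its p-value. Of 3 tested trichome and root hair patterning genes, GL3 was lower in dof quadruple rootstocks (-3.14 ± 1.23, adjusted p 0.0417; kept in 5 of 11 alternatives, up to 0.195, and lost without any of 5 single libraries), and TTG1 was higher in those of erf114,115 (0.69 ± 0.16, adjusted p 0.000807) and of anac071,096. Suberin is the related lipid barrier of inner tissues and wounds. Of 7 suberin genes 2 were tested, ASFT and FAR1, and both were higher in the rootstocks of each mutant. FAR1, a reductase of suberin alcohols, had 31.1, 43.5 and 30.7 CPM in anac071,096 rootstocks, against 0.0367, 0.0492 and 0 CPM in intact tissue (9.95 ± 0.71, adjusted p 2.62e-12). This intact level rests on almost no counts. FAR1 passed the filter on low counts through groups where it was higher. The change is thus a fitted value, and no support is drawn from its p-value.

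Of the 15 tested wax and elongation genes, 3 were higher and 0 lower in intact dof quadruple than in intact Col-0, with a median log2 change of 0.51, beside -0.02 over all loci, of which 4.59% were called in either direction. The 3 were KCS1, LACS1 and KCS5, and KCS5 (0.86 ± 0.25, adjusted p 0.038) was lost without any 1 of the 6 libraries (up to 0.185). KCS1, an elongase, had 243, 214 and 222 CPM in dof quadruple and 125, 72.5 and 108 CPM in Col-0 (1.15 ± 0.21, adjusted p 0.00047). LACS1, the synthetase relative of LACS2 that acts on wax precursors, had 78.8, 65.7 and 46.4 CPM in dof quadruple and 32.4, 33.4 and 20.3 CPM in Col-0 (1.15 ± 0.23, adjusted p 0.00154). KCS1 and LACS1 kept these calls when each library was left out in turn. LACS2 and KCS6 did not pass there, at 0.76 ± 0.25 and 0.66 ± 0.21 (adjusted p 0.0816 and 0.0742; DESeq2 0.0348 and 0.037). LACS2 passed with the replicate block (0.00658). For both genes all 3 dof quadruple libraries lay above those of Col-0.

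Markers of other cell types moved with some of these groups, and their part in the results was not tested. The summed level of 5 endodermis markers was 105 to 249 CPM in intact dof quadruple, against 43.3 to 58.2 CPM in intact Col-0, and 439 to 577 CPM in dof quadruple rootstocks, against 62.9 to 86.3 CPM in Col-0 rootstocks. In dof quadruple scions, where ATML1 was lower, they summed to 30.4 to 65.8 CPM, against 34.97 to 57.6 CPM in Col-0 scions. In intact anac071,096, where LACS2 was higher, they summed to 32.6 to 69.6 CPM and 5 xylem markers to 120.5 to 172 CPM, against 43.3 to 58.2 and 116 to 189.8 CPM in intact Col-0. The xylem markers were at 37.3 to 47.6 CPM in anac071,096 rootstocks and 14.4 to 26.2 CPM in those of erf114,115, where PDF1, BDG and CYP77A6 were low. The 5 mesophyll markers were at 7564 to 10916 CPM in anac071,096 scions, against 49482 to 53099 CPM in intact tissue. The 5 phloem markers were at 89.2 to 130.1 CPM in anac071,096 rootstocks and 270.0 to 285 CPM in intact tissue. None of these markers was at 0 over a whole group.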

How the data were processed

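The authors deposited raw counts per locus for 36 polyA RNA-seq libraries, with 0 per-sample columns left unused here. The submitters' processing notes name fastp, HISAT2, HTSeq, DESeq2 and TAIR10; the sources used here do not give versions, the strand setting or the annotation release. Library totals are given with the results.

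Counts were analysed with edgeR 4.0.16 in R 4.3.3: filterByExpr with a minimum count of 10 (19476 of 33341 loci), TMM scaling and 1 robust quasi-likelihood fit of 12 groups with 24 residual degrees of freedom. In each of 27 comparisons p-values were adjusted over all tested loci by Benjamini-Hochberg and called under 0.05. A log2 change has its standard error, and CPM uses TMM library sizes. The analysis was tested on simulated data. Loci were matched to RefSeq TAIR10.1 by identifier for coordinates, exon lengths and promoters. Figures were drawn with Python 3.11.15 and matplotlib 3.10.9.

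The 10 genes and 12 other lists (99 loci) were chosen with earlier results of these data known. From the other lists, up to 3 called genes per list and kind of comparison with the smallest adjusted p could be named. The likeness of loci was Pearson's r over 12 group means of log2(CPM + 0.5), naming up to 3 loci with symbols for each gene. Alternatives were DESeq2 1.42.0, other scalings, no filter, only the compared groups in the fit, replicate numbers as a block and leaving out each library. Same-numbered libraries were not treated as pairs in the main fit. P-values rest on the spread between libraries within groups, estimated over all 12 groups of the fit together and drawn toward that of other loci. It is not the spread of the compared groups alone.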

Additional observations from a re-analysis of the deposited data

Results flagged for a closer look

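In the other lists, edgeR's test of the difference itself called 10 differences between the grafting response of a mutant and that of Col-0. They were 2 of 90 gene and comparison pairs tested for wax genes, 1 of 48 for HD-ZIP IV and 3 of 12 for suberin genes. Endodermis markers gave 1 of 30, phloem markers 3 of 30 and the remaining lists none. Of all tested loci, 0.0462% to 0.945% were called per response comparison. The lists were drawn up with earlier results known, so nothing is read from the count. The first 3 below are in wax and HD-ZIP IV genes of dof quadruple. KCS1 had 205, 213 and 218 CPM in dof quadruple scions and 243, 214 and 222 CPM in intact dof quadruple, against 198, 211 and 260.2 CPM in Col-0 scions and 125, 72.5 and 108 CPM in intact Col-0. The difference in scion response was -1.22 ± 0.30 on the log2 scale (adjusted p 0.0348), and 8 of 18 alternatives kept the call, with an adjusted p of up to 0.126. HDG1 had 42.6, 40.6 and 48.6 CPM in dof quadruple scions and 67.6, 67.5 and 66.6 in intact dof quadruple, against 62.9, 58.8 and 63.9 CPM in Col-0 scions and 61.7, 61.7 and 46.0 CPM in intact Col-0 (-0.75 ± 0.18, adjusted p 0.033, kept by 6 of 18 alternatives, up to 0.157). LACS1 had 16.8, 24.2 and 26.5 CPM in dof quadruple rootstocks and 78.8, 65.7 and 46.4 in intact dof quadruple, against 22.7, 22.8 and 29.7 CPM in Col-0 rootstocks and 32.4, 33.4 and 20.3 CPM in intact Col-0 (-1.30 ± 0.33, adjusted p 0.048, kept by 4 of 18 alternatives, up to 0.189).

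In the suberin genes, the FAR1 response of dof quadruple minus that of Col-0 was -3.05 ± 0.63 in rootstocks (adjusted p 0.00866), kept by 17 of 18 alternatives and lost with only the compared groups in the fit (0.128). FAR1 had 20.5, 21.9 and 13.0 CPM in dof quadruple rootstocks and 2.14, 2.09 and 1.47 CPM in intact dof quadruple, against 41.1, 33.6 and 43.2 CPM in Col-0 rootstocks and 0.0459, 1.22 and 0.0459 CPM in intact Col-0, and intact Col-0 held 1, 35 and 1 counts. Without intact Col-0 replicate 2 the difference was -6.31, a fitted value that then rests on 1 count in each remaining intact Col-0 library. In scions it was -2.68 ± 0.63 (adjusted p 0.0278, kept by 8 of 18, up to 0.253), and -5.94 without that library. The ASFT scion response of dof quadruple minus Col-0 was -4.56 ± 1.06 (adjusted p 0.0261, kept by 11 of 18, up to 0.116). This difference includes that of intact tissue, where ASFT was higher in dof quadruple than in Col-0 (4.22 ± 0.82, adjusted p 0.000932, 4.59% of loci called). The 7 suberin genes together had only 1.28 to 2.02 CPM in intact Col-0, so the ASFT values rest on a low level there. Among the cell type markers, the endodermis marker MYB36 had -3.57 ± 0.89 in dof quadruple minus Col-0 scion responses (adjusted p 0.0443, kept by 7 of 18, up to 0.169). Here too intact tissue is part of the difference, since MYB36 was higher in intact dof quadruple than in intact Col-0 (2.70 ± 0.65, adjusted p 0.00919). The phloem marker CALS7 had -2.68 ± 0.53 in anac071,096 minus Col-0 rootstock responses (adjusted p 0.0189, kept by 13 of 18, up to 0.0888) and -2.64 ± 0.51 in scion responses (0.0327, kept by 6 of 18, up to 0.127). The phloem marker SEOR1 had -1.90 ± 0.41 in rootstock responses (0.0385, kept by 7 of 18, up to 0.182).

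Among the 10 genes, 2 differences were flagged because all libraries of a mutant moved one way and all Col-0 libraries the other. The share of all loci with this pattern was not computed, so nothing is read from the count of 2. All 3 anac071,096 scions had less LACS2 than all 3 intact anac071,096 libraries, while all 3 Col-0 scions had more than intact Col-0. The difference of -1.59 ± 0.35 did not pass with edgeR (adjusted p 0.109) and passed with DESeq2 (0.00408), with the replicate block (0.00769) and with only the compared groups in the fit (0.0321). All 3 dof quadruple scions had less ATML1 than all 3 dof quadruple rootstocks, while all 3 Col-0 scions had more than the Col-0 rootstocks. Scion over rootstock, the log2 change of ATML1 was -0.29 ± 0.16 in dof quadruple (adjusted p 0.153, and 0.0383 with only the compared groups in the fit) and 0.33 ± 0.16 in Col-0. The difference of -0.62 between them was not tested.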

How the results depend on the processing

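Over the 8 tested genes, edgeR made 19 of 24 possible calls in Col-0 tissue comparisons, 56 of 72 within mutants, 5 of 72 between mutants and Col-0, and 0 of 48 for grafting responses. Of all tested loci, 16.4% to 28.7% were called in each direction of each tissue comparison within mutants. Between mutants and Col-0 the share in either direction was 0.0308% to 4.59%, and for grafting responses 0.0462% to 0.945%. Nothing is read from the Col-0 count. Leaving out each library in turn gave 17 to 20, 53 to 57, 4 to 8 and 0 to 3 calls, and the 8 and the 3 came without erf114,115 rootstock replicate 3. Where the library left out belonged to the compared groups, all 576 leave-one-out values of grafting responses kept their side of the threshold. The 3 response calls thus lie in comparisons that do not hold this library but share the fit with it. No value changed sign past the threshold. DESeq2 made 9 calls between mutants and Col-0, 5 higher and 4 lower. For grafting responses DESeq2 made 2 calls, only the compared groups in the fit 1, and the replicate block 2. The cause of these differences was not tested. The block made 19, 58 and 7 calls in the other kinds of comparison. It is given as an alternative only, because the sample titles number the replicates and do not state pairs. Among 198 same-numbered pairs from different groups, deviations from group means had a median correlation of 0.12 and a lowest of -0.49. Pairs with other numbers had a median of -0.07. The 3 deviations of a group sum to 0, which ties this value to that of same-numbered pairs, so it is not a separate contrast. Of the 36 libraries, 26 had their closest partner in another group under their own number. Whether same-numbered libraries share an effect was not tested. Upper-quartile scaling moved the median of all loci by up to 0.17 on the log2 scale. In the other lists, the alternatives covered up to 3 calls per list and kind of comparison, cell type markers left out. All calls between mutants and Col-0 outside the markers were added, and all calls of grafting responses. Of these values, 684 kept their side of the threshold and 142 did not. They include Col-0 tissue calls and calls not named here, and some named calls are not among them. Depth limited PDF1 in rootstocks, GPAT6 and CER1.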
